A study of Mus musculus with 8 samples.

Results

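Transcripts of 4 enzymes of ketone body use, Bdh1, Bdh2, Oxct1 and Acat1, were followed in hearts that lacked Lrpprc. The genes were chosen by name for their place in the pathway, with earlier results of these data known. All 4 were found among the 50599 gene records of each library. Ketone bodies, acetoacetate and β-hydroxybutyrate, are made in the liver and burned in heart, skeletal muscle and brain. In mitochondria of the heart Bdh1 oxidises β-hydroxybutyrate to acetoacetate, Oxct1 (also called SCOT) loads acetoacetate with coenzyme A taken from succinyl-CoA, and Acat1 splits the acetoacetyl-CoA into acetyl-CoA for the tricarboxylic acid (TCA) cycle. Bdh2 is a cytosolic hydroxybutyrate dehydrogenase.

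Total RNA came from whole hearts of 12-week-old male mice on the C57BL/6N strain, with 4 animals labelled wildtype and 4 labelled Lrpprc knockout and 1 library per animal. By the study's methods the controls were Lrpprc loxP/loxP and the knockouts Lrpprc loxP/loxP that also carried Cre, active in heart and skeletal muscle. The promoter that drove Cre is not given in the sources used here, nor which cells of the heart lost the gene. Lrpprc encodes an RNA-binding protein of mitochondria.

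The libraries held 35218541 to 47743376 expected counts. Mitochondrial rRNA took 44.0 to 46.9% of them in the wildtype and 65.6 to 67.8% in the knockout. The normalised count of Lrpprc was 3424 to 3946 in the wildtype and 504.3 to 605.4 in the knockout, where it fell by 2.67 on the log2 scale (adjusted p = 3.77e-153 by DESeq2), so all 8 libraries matched their labels. A normalised count is the expected count divided by a size factor for the library and corrected for the gene's effective length in that library. Of 8 cardiomyocyte markers, 7 were lower in the knockout, Tnnt2 did not pass the test, and the median log2 fold change was -0.96. Without knockout replicate 3 Tnnt2 had -0.32 (adjusted p = 0.0014 by DESeq2), and all 8 markers were lower. Their summed normalised count was 1114000 to 1222000 in the wildtype and 525100 to 679600 in the knockout. In whole tissue, fewer cells of a type and less RNA per cell cannot be told apart. Knockout replicate 3 stood apart from the other knockout libraries in genes of fuel use, and values without it are given beside the results it moved most.

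Oxct1 and Acat1 fell in the knockout hearts, while the values of Bdh1 and Bdh2 overlapped between the groups. Of the 4 genes, 0 were higher and 2 were lower at an adjusted p under 0.05. Across all 19959 records tested, 33.7% passed the test, 18.2% higher and 15.5% lower in the knockout. Bdh1, Oxct1 and Acat1 were abundant in these hearts, and Bdh2 was close to the limit of detection.

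The stretch before the start of Oxct1 and of Bdh1 is shown because Oxct1 was the most abundant of the 4 transcripts and Bdh1, which acts before it, did not fall with it. RefSeq promoters on GRCm38.p6 matched 3 of the 4 genes, with 2 starts for Bdh1. The bases shown end where the annotated gene begins, read 5′ to 3′ on the plus strand, and have CG dinucleotides in capitals. They cover chr15:4026178-4026382 for Oxct1 and chr16:31422047-31422279 for the first start of Bdh1.
Oxct1: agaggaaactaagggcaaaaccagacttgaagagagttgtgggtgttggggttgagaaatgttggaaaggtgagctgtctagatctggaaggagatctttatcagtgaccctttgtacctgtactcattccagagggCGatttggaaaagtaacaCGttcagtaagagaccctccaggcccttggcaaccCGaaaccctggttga
Bdh1: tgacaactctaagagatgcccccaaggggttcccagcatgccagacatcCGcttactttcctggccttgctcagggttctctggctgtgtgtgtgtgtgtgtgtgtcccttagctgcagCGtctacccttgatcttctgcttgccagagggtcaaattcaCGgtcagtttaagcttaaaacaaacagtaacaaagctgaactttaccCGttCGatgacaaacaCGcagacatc
The letters shown held 3 CG dinucleotides in Oxct1 and 6 in Bdh1. The full 250 bases before the RefSeq start held 6 in Oxct1, and 7 and 9 at the 2 starts of Bdh1. The median was 6 over 32851 promoters. Of 6 short motifs searched on both strands, none was found in the 250 bases of Oxct1 or at either start of Bdh1. They were AGGTCA (14% of all promoters), AAGGTCA (4.08%, which contains the former), TGATGNAA (3.45%), GGGCGG (32.7%), CACGTG (6.02%) and CCAAT (33.8%). Bdh2 held a single CCAAT, on the minus strand. No match says only that the letters are not in this window.

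Oxct1 (ENSMUSG00000022186.14, a protein-coding gene at chr15:4026383-4155344 on the plus strand, GRCm38) is the rate-limiting enzyme of ketone body use. In the wildtype its normalised counts were 18570, 17790, 21320 and 19440 by replicate number, and in the knockout 14740, 13990, 11650 and 13290. Every knockout library lay below every wildtype library, and knockout replicate 3 was the lowest. Among all records tested, the groups did not overlap in 33.0%. Wildtype libraries averaged 19280 ± 1520 (SD, n = 4) and knockout libraries 13420 ± 1320 (SD, n = 4), a fold of 0.696. Oxct1 fell by 0.52 ± 0.106 (SE) on the log2 scale (adjusted p = 7.99e-06 by DESeq2). Leaving out single libraries kept it between -0.57 and -0.46. When libraries were scaled to their total without mitochondrial rRNA, which moved the median gene by 0.425, the value was -0.09 (adjusted p = 0.576 by DESeq2), or -0.54 relative to the median gene.

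Acat1 (ENSMUSG00000032047.5, chr9:53580522-53610382 on the minus strand) encodes the mitochondrial acetoacetyl-CoA thiolase, which also works in the breakdown of isoleucine. Its normalised counts were 8548, 7947, 7461 and 7921 in the wildtype and 4221, 4355, 6327 and 4149 in the knockout. The groups did not overlap, and knockout replicate 3 stood above the other 3 knockout libraries. Acat1 fell by 0.74 ± 0.15 (SE) on the log2 scale, a fold of 0.598 (adjusted p = 6.78e-06 by DESeq2). Without knockout replicate 3 it was -0.91 (adjusted p = 2.33e-32 by DESeq2). The cardiomyocyte markers moved in the same direction as Oxct1 and Acat1, and their part in these falls was not tested.

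Bdh1 (ENSMUSG00000046598.14, chr16:31422280-31458901 on the plus strand) encodes the dehydrogenase of the inner mitochondrial membrane. Its normalised counts were 1250, 901.2, 2535 and 1654 in the wildtype and 1890, 2041, 2722 and 2150 in the knockout. Wildtype replicate 3 was above 3 of the 4 knockout libraries, and the other wildtype libraries were below all of them. The log2 fold change of 0.47 ± 0.267 (SE) had a 95% interval of -0.05 to 1.0 and did not pass the test (adjusted p = 0.168 by DESeq2). Without wildtype replicate 3 it was 0.79 (adjusted p = 0.0015 by DESeq2), and without wildtype replicate 2 it was 0.28, the lowest of the values without a single library. With totals that excluded mitochondrial rRNA the value was 0.89 (adjusted p = 0.00254 by DESeq2), or 0.45 relative to the median gene. With total counts it was 0.17 (adjusted p = 0.649 by DESeq2), or again 0.45 relative to the median gene.

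Bdh1 also differed among animals of the same genotype. In the wildtype its highest library was 2.81 times its lowest, and the coefficient of variation was 44.4%. The median over 10447 records with a mean of at least 100 was 8.57%, and 99.3% of them varied less than Bdh1. In the knockout the coefficient was 16.5% beside a median of 15.0%. Oxct1 had 7.87% in the wildtype and 9.84% in the knockout, and Acat1 had 5.59% and 22.0%.

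Bdh2 (ENSMUSG00000028167.15, chr3:135281221-135304426 on the plus strand) had 5 to 26 counts per library. Its normalised counts were 8.145, 13.47, 6.39 and 5.909 in the wildtype and 5.337, 11.41, 34.55 and 13.41 in the knockout. Knockout replicate 3 was the highest, and knockout replicate 1 was the lowest of all 8 libraries. The log2 fold change of 0.92 had a 95% interval of -0.31 to 2.16 and did not pass the test (adjusted p = 0.27 by DESeq2). Without knockout replicate 3 it was 0.27 (adjusted p = 0.797 by DESeq2).

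**Figure D1:**
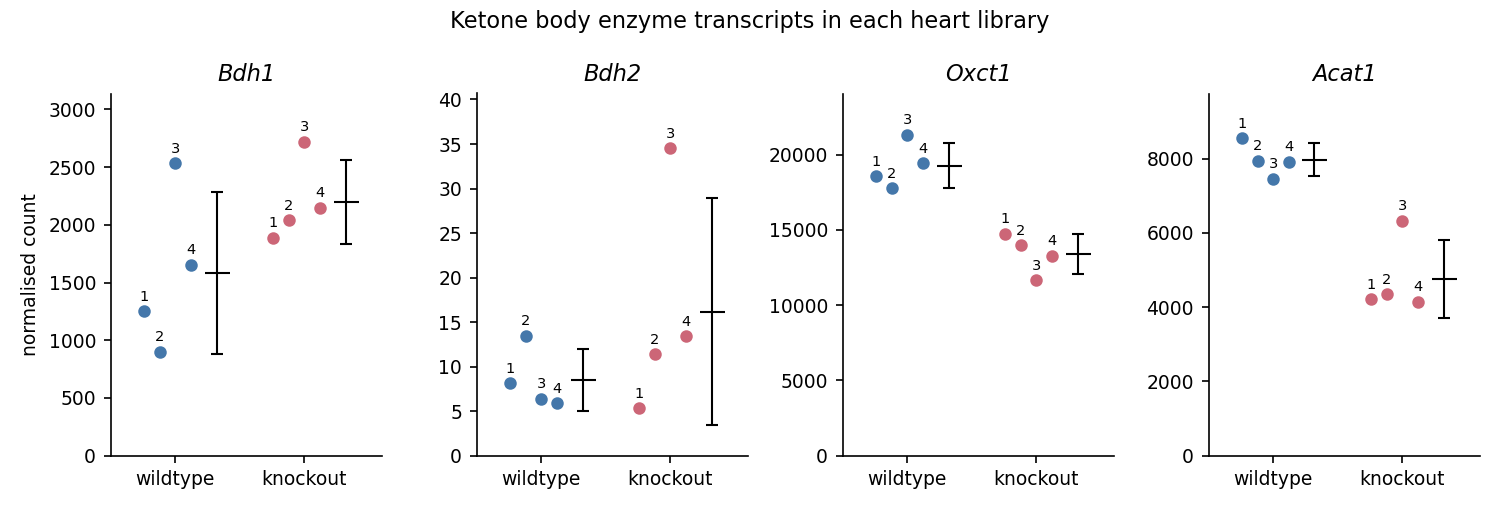
Normalised counts (vertical axes, from 0, each on its own scale) of Bdh1, Bdh2, Oxct1 and Acat1 in 4 wildtype and 4 knockout libraries. Numbers beside the points are replicate numbers, and the black bars give the mean ± 1 SD. The knockout points of Oxct1 (11650 to 14740) and Acat1 (4149 to 6327) lie below all wildtype points, while those of Bdh1 and Bdh2 overlap with them.

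Per length, the 4 transcripts kept wide gaps in the wildtype. The normalised count per kilobase of effective length was 7757 ± 611 (SD, n = 4) for Oxct1, 2605 ± 146 for Acat1, 1060 ± 471 for Bdh1 and 8.777 ± 3.58 for Bdh2. No neighbours in this order overlapped, since Acat1 ranged from 2439 to 2794 and Bdh1 from 603 to 1696. Oxct1 stood above 99.1% of the records tested, Acat1 above 97.5%, Bdh1 above 94.7% and Bdh2 above 24.2%.

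In the knockout Bdh1 lay nearer to Oxct1 and Acat1. The level per kilobase was 5398 ± 531 (SD, n = 4) for Oxct1, 1557 ± 342 for Acat1, 1473 ± 243 for Bdh1 and 16.75 ± 13.2 for Bdh2. Acat1 (1356 to 2068) and Bdh1 (1265 to 1822) now overlapped. The mean level of Oxct1 was 7.32 times that of Bdh1 in the wildtype and 3.66 times in the knockout.

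A ratio of genes within a library does not depend on how the libraries were scaled. The log2 ratio of Bdh1 to Oxct1, both per length, was -3.159, -3.569, -2.339 and -2.821 in the wildtype and -2.229, -2.044, -1.363 and -1.894 in the knockout. All 4 knockout libraries lay above all 4 wildtype libraries, and the closest pair were wildtype replicate 3 and knockout replicate 1. The geometric mean ratio was 0.127 in the wildtype and 0.271 in the knockout, and the log2 means differed by 1.09 (two-sided exact permutation test, p = 0.0286). That is the smallest p that 70 assignments allow, and it was 0.114 after adjustment over 4 ratios, so the difference did not pass.

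The ratio of Acat1 to Oxct1 differed by -0.24 on the log2 scale (exact permutation test, p = 0.343, adjusted 0.457), with overlapping groups, and by -0.142 to -0.449 without single libraries. In 3 knockout libraries it was -2.104 to -1.979, below the wildtype range of -1.814 to -1.419, and in knockout replicate 3 it was -1.18, above that range. Without knockout replicate 3 the difference was -0.449 (exact permutation test, adjusted p = 0.114). From counts not divided by effective length, with all libraries, it was -0.099 (exact permutation test, adjusted p = 0.943). The ratio of Bdh2 to Oxct1 differed by 1.22 (exact permutation test, p = 0.114, adjusted 0.229), with overlapping groups. It was 0.679 without knockout replicate 3 (exact permutation test, adjusted p = 0.229) and at most 1.691 without another library.

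**Figure D2:**
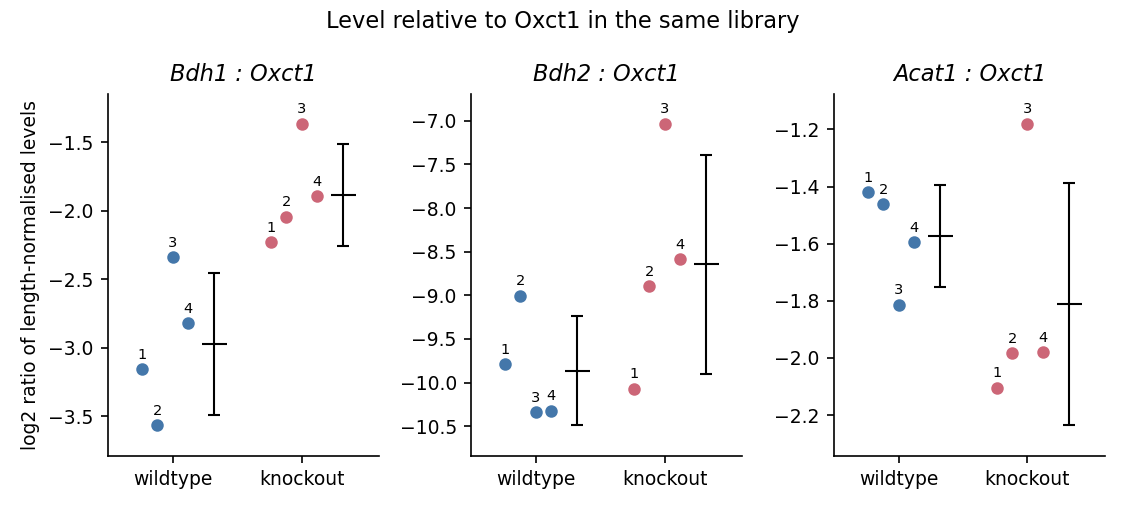
Log2 ratio of the length-normalised level of Bdh1, Bdh2 and Acat1 to that of Oxct1 in the same library (vertical axes, each on its own scale and not from 0), with replicate numbers and mean ± 1 SD. The groups are apart only for Bdh1 (-3.569 to -2.339 against -2.229 to -1.363), and knockout replicate 3 is the highest knockout point in every panel.

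Oxct1 also stood apart in the length that RSEM assigned to it, the mean over its transcripts weighted by their estimated abundance. The lengths were 2842, 2745, 2744 and 2849 bases in the wildtype and 2573, 2517, 2437 and 2537 bases in the knockout. All knockout values were below all wildtype values, a difference of -279 bases or -9.99% that did not pass after adjustment (two-sided exact permutation test, p = 0.0286, the smallest possible, adjusted 0.114 over 4 genes). Among 8342 records with a mean of at least 100 and a length that varied, the groups did not overlap in 10.2%, and 5.37% were shorter in the knockout without overlap. The annotation gives Oxct1 protein-coding transcripts of 3527 bases (Oxct1-201) and 1743 bases (Oxct1-205) and shorter noncoding ones of 471 to 699 bases. The files used here do not say how the counts were divided among these transcripts.

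The assigned length enters the fold change of Oxct1. With no correction for it, the log2 fold change was -0.68 (adjusted p = 9.22e-09 by DESeq2), against -0.52 with it. The lengths of Acat1 (3249 ± 31.3 and 3202 ± 75.3 bases, SD, n = 4), Bdh1 (1716 ± 112 and 1611 ± 70.5 bases) and Bdh2 (1134 ± 167 and 1143 ± 103 bases) overlapped between the groups. On the opposite strand BC037032 shares 1023 bases with Oxct1, and reads were counted by strand. Its normalised count was 123.4 to 177.6 in the wildtype and 35.61 to 105.2 in the knockout, and its log2 fold change was -1.06 (adjusted p = 0.00125 by DESeq2).

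**Figure D3:**
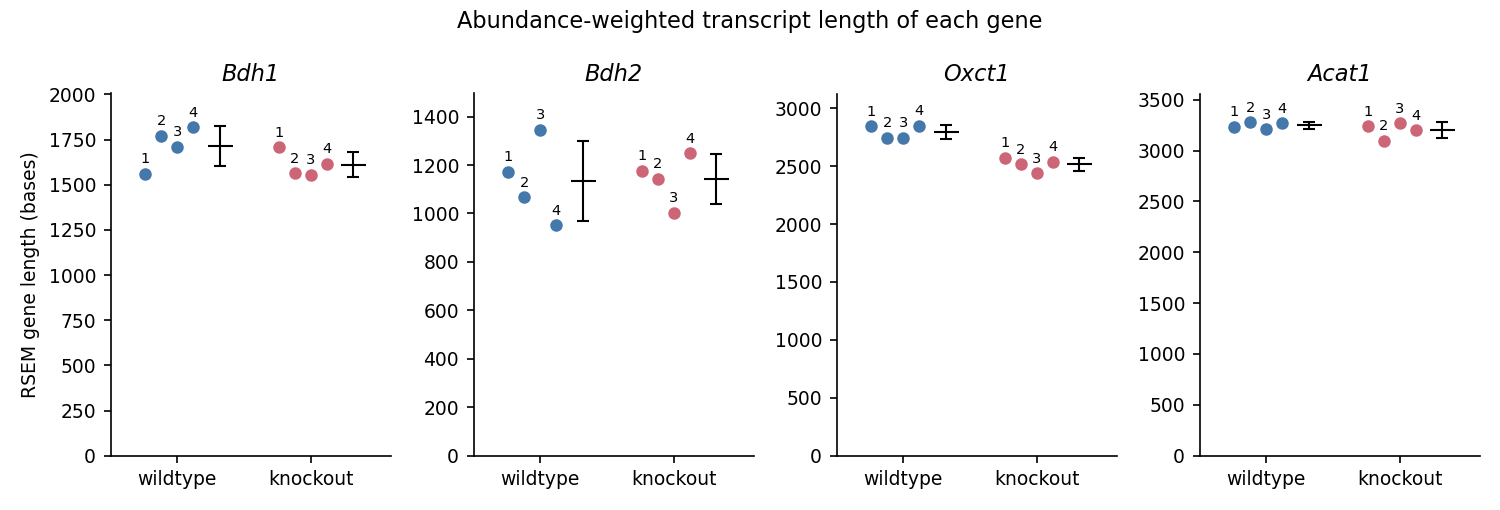
Gene length as RSEM gives it, in bases (vertical axes, from 0), for Bdh1, Bdh2, Oxct1 and Acat1 in each library, with replicate numbers and mean ± 1 SD. The knockout points of Oxct1 (2437 to 2573 bases) lie below its wildtype points (2744 to 2849 bases), and the other genes overlap.

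The rest of the ketone body pathway passed the test about as often as all records did. Of 31 further genes of synthesis, activation, thiolysis, transport, sensing and regulation, 26 were tested, 4 were higher, 5 were lower and 17 did not pass, with a median log2 fold change of -0.10. The share past the test was 34.6%, beside 33.7% of all records, whose median was 0.01. Oxct2b and Ffar3 had no count in any library, and the other 3 untested genes had at most 3 counts per library. Without knockout replicate 3, 4 were higher and 11 were lower, beside 18.6% higher and 16.5% lower of the 19959 records tested with all libraries. With totals that excluded mitochondrial rRNA 14 were higher and 2 were lower, beside 38.9% higher and 5.43% lower of all records tested on that scale, and the median relative to the median gene was -0.13.

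Acetoacetate can also be activated in the cytosol by Aacs, the acetoacetyl-CoA synthetase of lipid synthesis. Aacs had normalised counts of 69.91 to 111.3 in the wildtype and 153.8 to 273.6 in the knockout, without overlap, and rose by 1.24 on the log2 scale (adjusted p = 2.76e-06 by DESeq2). Among the other thiolases Acaa2, which ends mitochondrial β-oxidation, fell by 1.27 on the log2 scale (adjusted p = 1.4e-07 by DESeq2). Acat2, the cytosolic thiolase, fell by 0.79 (adjusted p = 0.00225 by DESeq2). It shares 97.7% identity over 1477 bases with Acat3, so the division of reads between Acat2 and Acat3 is uncertain. A match of 98.7% over 445 bases with Tcp1 came from a search of both strands, while reads were counted by strand.

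Ketone bodies cross membranes with monocarboxylate carriers. For Slc16a1 (MCT1), the main carrier for uptake in the heart, the log2 fold change was 0.07 and its 95% interval -0.27 to 0.4 (adjusted p = 0.816 by DESeq2). It was 0.48 (adjusted p = 0.00358 by DESeq2) with totals that excluded mitochondrial rRNA, which moved the median gene by 0.425, and -0.13 (adjusted p = 0.295 by DESeq2) without knockout replicate 3. Slc16a3 (MCT4), a lactate exporter, had normalised counts of 32.32, 39.21, 61.19 and 21.67 in the wildtype and 98.88, 204.5, 75.68 and 188.3 in the knockout and rose by 1.89 on the log2 scale (adjusted p = 1.2e-05 by DESeq2). Slc16a6, known for export of ketone bodies from liver, rose by 0.91 (adjusted p = 0.000627 by DESeq2).

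Emb, a chaperone of some monocarboxylate carriers, had 19.07, 37.75, 32.11 and 41.8 in the wildtype and 36.84, 108.6, 61.09 and 102.5 in the knockout. Its log2 fold change was 1.24 (adjusted p = 0.00556 by DESeq2), with overlapping groups. Slc16a3 and Emb were highest in knockout replicates 2 and 4. Of 6 macrophage markers 5 were also higher in the knockout, and their summed normalised count was 2656 to 3460 in the wildtype and 3738, 7139, 3054 and 6229 in knockout replicates 1 to 4. Of 7 fibroblast markers 2 were higher and 1 was lower, with sums of 32640 to 33920 in the wildtype and 27930, 34520, 25790 and 35910 in the knockout. Both that were higher, the collagens Col1a1 (1660, 3228, 769.2 and 2355 in the knockout) and Col1a2 (4017, 8066, 2350 and 6374), were also highest in knockout replicates 2 and 4. The part of the macrophage and fibroblast markers in the rise of Slc16a3 and Emb was not tested.

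Of 4 genes at steps that use succinyl-CoA or take up acetyl-CoA, Sucla2 fell by 0.33 on the log2 scale (adjusted p = 0.00243 by DESeq2). Sucla2 is a subunit of succinyl-CoA synthetase, and the other 3 genes did not pass. Without knockout replicate 3, all 4 were lower, with Suclg1 at -0.28 (adjusted p = 0.00874 by DESeq2), Suclg2 at -0.26 (adjusted p = 0.0126) and Cs, the citrate synthase, at -0.295 (adjusted p = 0.000284). Of 5 regulators tested, the nuclear receptor Ppara fell by 0.95 (adjusted p = 1.31e-08 by DESeq2) and the coactivator Ppargc1a by 0.63 (adjusted p = 0.00573 by DESeq2). Ppara had 756.7 to 975.6 normalised counts in the wildtype and 352.7 to 543.8 in the knockout. With totals that left out mitochondrial rRNA, Sucla2 had 0.09, Acat2 -0.36 and Ppargc1a -0.22, and none of these passed.

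**Figure D4:**
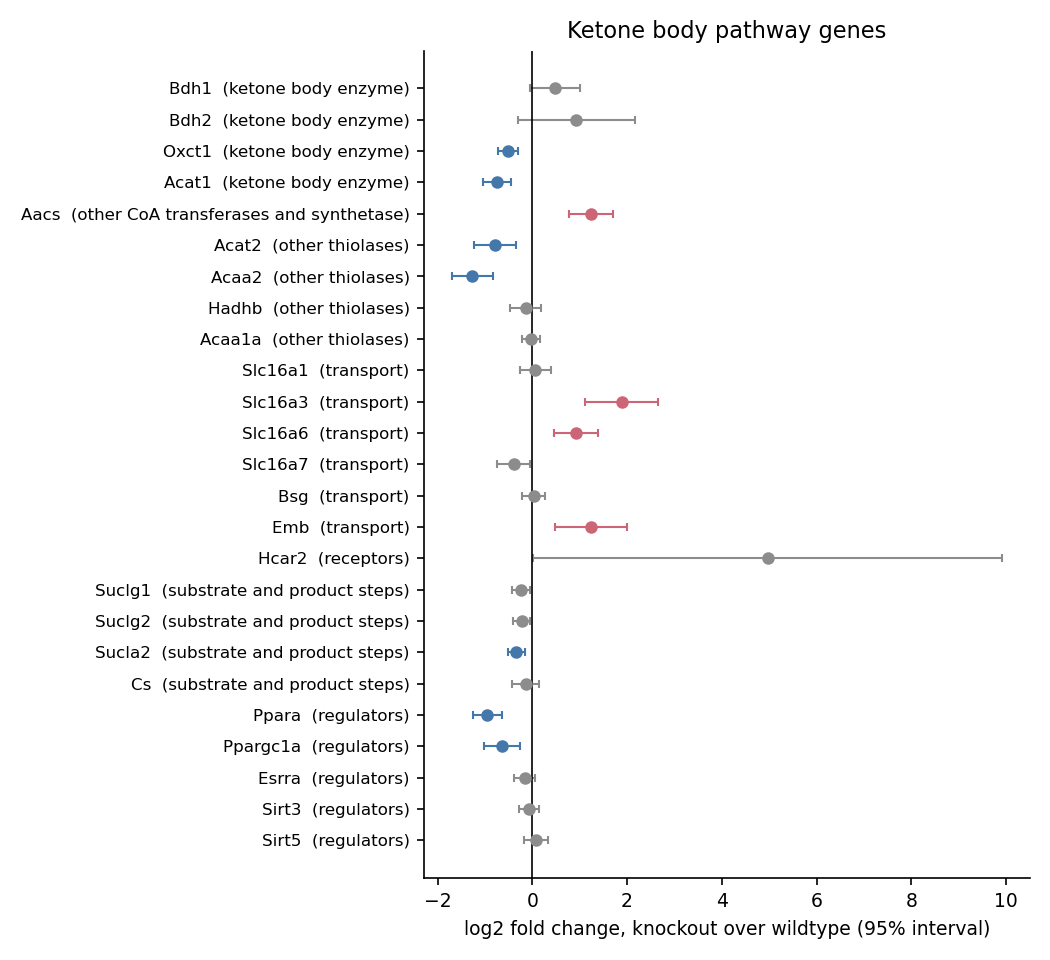
Log2 fold change, knockout over wildtype, with its 95% interval (horizontal axis) for the 4 enzymes and the further pathway genes reported here that averaged at least 10 normalised counts. Red marks genes that were higher and blue those that were lower at an adjusted p under 0.05 by DESeq2, and grey those that did not pass. Among genes that passed, Slc16a3 reaches 1.89 and Acaa2 -1.27. The value of 4.97 with the wide interval, which did not pass (adjusted p = 0.119 by DESeq2), belongs to Hcar2, a receptor named here after its values were seen, with 73.95 normalised counts in knockout replicate 2 and at most 7.523 elsewhere.

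Pathways that make or burn the same acetyl-CoA had medians below 0. Of 19 genes of fatty acid β-oxidation 1 was higher and 10 were lower, with a median of -0.47, and of 17 TCA cycle genes 0 were higher and 6 were lower, with a median of -0.20. Of 18 genes of branched-chain amino acid breakdown, which also yields acetoacetate, 1 was higher and 14 were lower, with a median of -0.79. The shares past the test were 57.9%, 35.3% and 83.3%, beside 33.7% of all records. With totals that excluded mitochondrial rRNA, which moved the median gene by 0.425, 11 TCA cycle genes were higher and 0 lower. On that scale 38.9% of all records were higher and 5.43% lower. With total counts, which moved the median gene by -0.296, 17 TCA cycle genes were lower, beside 29.6% of all records. Relative to the median gene the TCA median was -0.23 on both scales, that of β-oxidation -0.50 and that of branched-chain breakdown -0.81. The fall of Acat1 (-0.74) was near the median of the last list and that of Oxct1 (-0.52) near that of β-oxidation. The lists share 7 genes with the pathway genes above, among them Acaa2 and Sucla2.

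The leading genes of these lists were mitochondrial enzymes. Ivd, the isovaleryl-CoA dehydrogenase of leucine breakdown, fell by 1.67 on the log2 scale (adjusted p = 2.24e-42 by DESeq2), and Sdhc, an anchor subunit of succinate dehydrogenase, fell by 0.59 (adjusted p = 2.24e-05 by DESeq2), a call that was lost at -0.17 (adjusted p = 0.151 by DESeq2) with totals that excluded mitochondrial rRNA. Hibch, a hydrolase of valine breakdown, had 0.26 (adjusted p = 0.0316 by DESeq2), and Cpt1a, the liver form of the carnitine palmitoyltransferase, had 0.65 (adjusted p = 0.0429 by DESeq2). Each call was lost in 6 of the 8 fits that left out a library, among them that without knockout replicate 3, at 0.20 for Hibch (adjusted p = 0.0682 by DESeq2) and 0.30 for Cpt1a (adjusted p = 0.151 by DESeq2). Knockout replicate 3 had 2640 normalised counts of Cpt1a, against 922.7 to 1455 in the other knockout libraries.

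**Figure D5:**
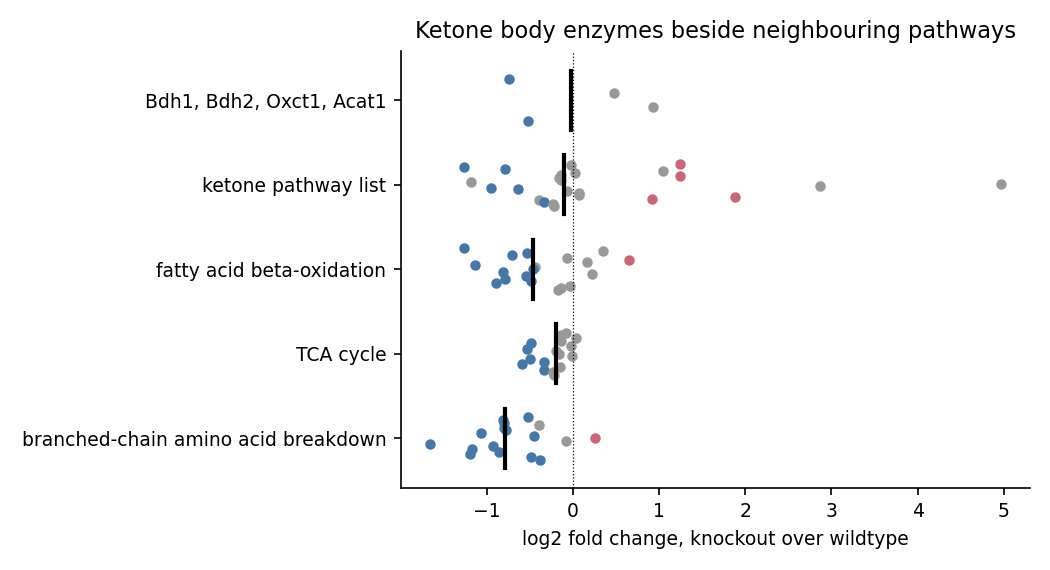
Log2 fold change, knockout over wildtype (horizontal axis), of the tested genes of each list that are reported here, with red for higher, blue for lower and grey for not passed by DESeq2, and a black bar at the list's median. The medians are -0.02 for Bdh1, Bdh2, Oxct1 and Acat1, -0.10 for the further pathway genes, -0.47, -0.20 and -0.79 for the 3 other lists.

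Knockout replicate 3 stood apart in fuel metabolism. It was the highest of the 4 knockout libraries in Bdh1, Bdh2 and Acat1 and the lowest in Oxct1. It was also the highest in 18 of 19 genes of β-oxidation, 15 of 17 of the TCA cycle, 13 of 18 of branched-chain breakdown and 18 of 26 further pathway genes, beside 33.8% of all records tested. Its marker sums were the lowest in the knockout for endothelium (10250), atrium (1268), fibroblasts (25790), macrophages (3054) and adipose tissue (5.317), and all 5 erythroid markers were highest in it. Without it, 3 of 6 endothelial markers were higher, against 0 with it. The counts lower without it were 15 for β-oxidation, 12 for the TCA cycle and 16 for branched-chain breakdown, and 2 for the 4 enzymes, beside 16.5% of the 19959 records tested with all libraries.

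The genes with the profile most like each enzyme were sought among 9868 protein-coding genes over the 8 libraries, by the root mean square difference of centred log2 values. The genes most like Acat1 included Etfb, a subunit of the electron transfer flavoprotein (0.052), and Arhgap26 (0.087). Etfb had 5395, 5091, 4777 and 4917 normalised counts in the wildtype and 2737, 2519, 3787 and 2602 in the knockout, with the same high value in replicate 3 as Acat1. The nearest to Oxct1 were Rhobtb2 (0.065), Cpox, an enzyme of haem synthesis (0.068), and Nup85, a nuclear pore subunit (0.071).

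Bdh1 and Bdh2 had no neighbour so close. The nearest to Bdh1 were Mtmr1 (0.232), the oncostatin M receptor Osmr (0.236) and Enc1 (0.255), and the nearest to Bdh2 were Igfbp3 (0.245), Thbs2 (0.317) and Cpt1a (0.354). Igfbp3 had 1469 normalised counts in knockout replicate 3, against 248.4 to 643.8 in the other knockout libraries.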

How the data were processed

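RNA of 4 wildtype and 4 Lrpprc knockout hearts was grouped by sample titles. The authors depleted cytoplasmic rRNA, made TruSeq libraries with random primers and sequenced them in pairs. The deposited expected counts came from RSEM 1.2.31 with bowtie2, reverse-stranded, on GENCODE M13 transcripts (mm10) and added mitochondrial sequences with 50 adenines at the end. RSEM divides reads shared by genes, so the expected counts of the authors were rounded to whole numbers here. The deposited gene length and effective length in bases are other values of the authors. A deposited table with a log2 fold change, a mean signal, a p-value and an adjusted p-value held the authors' comparison and was not used. A further table had 8 columns that match no sample label, and these were not used.

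All records of the 8 libraries entered a DESeq2 1.42.0 fit (R 4.3.3) on genotype alone, with effective lengths as offsets (the tximport route of the study; lengths of 0 were set to 1), median-of-ratios size factors, no shrinkage and Benjamini-Hochberg adjustment over all records, at 0.05. Records without an adjusted p were not counted as tested. Ratios and lengths were compared by exact permutation over 70 assignments. GENCODE M21 gave symbols and positions, with a match for 50339 of 50563 Ensembl records. The fits were tested on simulated data. The members, lists and tests were chosen with earlier results of these data known.

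Named were the 4 enzymes, Lrpprc, Slc16a1, every further pathway gene past the threshold with a mean of at least 10, the largest rise and fall past the threshold in each other list, and the 3 protein-coding genes with a mean of at least 100 most like each enzyme, after log2(normalised count + 1). Some genes that the rule names entered the tests and counts, among them 1 of the 4 ratios, but are not reported here. Marker lists covered cardiomyocytes (7 of 8 lower), fibroblasts (2 of 7 higher, 1 lower), endothelium (0 of 6), macrophages (5 of 6 higher), erythroid cells (0 of 5), atrium (2 of 4 lower), adipose tissue (0 of 4) and hepatocytes (1 of 2 tested higher). The alternatives left out each library, added a replicate block, dropped the length offset, kept records with 10 counts in 4 libraries, used size factors of nuclear records or total counts (also excluding mitochondrial rRNA), or used edgeR 4.0.16 with TMM. Within groups the chi-square per degree of freedom was 4.65 to 52.9, so each library counted as 1 replicate. Intervals and floors cover counting and replicate error only.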

Additional observations from a re-analysis of the deposited data

Results flagged for a closer look

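A library counted as far from its group when its gap to the nearest other library was large beside the range of the 4. Of 50 groups of values checked, 2 had such a library, where about 2.5 are expected by chance. In the knockout, replicate 3 had an Acat1 normalised count of 6327 against 4149 to 4355 in the others. Its log2 ratio of Acat1 to Oxct1 was -1.18, against -2.104 to -1.979.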

How the results depend on the processing

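Acat1 stayed lower and past the threshold under every alternative (-1.05 to -0.33), and Bdh2 passed under none. With totals that left out mitochondrial rRNA, the median gene moved by 0.425 and Oxct1 had -0.094 (DESeq2, adjusted p = 0.576) and Bdh1 0.89 (adjusted p = 0.00254). Then 1 of the 4 enzymes was higher and 1 lower, 14 further pathway genes were higher and 2 lower, 5 β-oxidation genes were higher and 6 lower, 11 TCA genes were higher and 0 lower, and 3 branched-chain genes were higher and 10 lower, beside 38.9% higher and 5.43% lower of all records. Sucla2 had 0.085 and Slc16a1 0.476 (adjusted p = 0.00358) on that scale. That scaling multiplies all genes of a library alike. With total counts, which moved the median gene by -0.296, 14 further pathway genes and 17 TCA genes were lower, and 0 β-oxidation and 0 branched-chain genes were higher. Of all records on that scale, 9.64% were higher and 29.6% lower. There Slc16a1 had -0.25 and Hibch -0.041. With edgeR, 0 β-oxidation genes were higher.

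The replicate numbers did not pair the samples, since same-numbered libraries had correlations of -0.052 to 0.086 and 2 of 8 correlated best with their own number. With the replicate block Bdh1 had 0.56 (DESeq2, adjusted p = 0.0101), 1 enzyme was higher, 0 β-oxidation and 0 branched-chain genes were higher, the Bdh1 to Oxct1 ratio was 1.09 and the Oxct1 length difference -279 bases, each with an adjusted p of 0.5 (exact sign-flip test), whose smallest unadjusted p is 0.125.

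Without single libraries Bdh1 ranged from 0.28 to 0.79, the number of enzymes higher from 0 to 1, further pathway genes lower from 5 to 11, β-oxidation genes higher from 0 to 2, TCA genes lower from 5 to 12 and branched-chain genes higher from 0 to 1. Slc16a1 ranged from -0.13 to 0.17 (-0.13 without knockout replicate 3). The Bdh1 to Oxct1 ratio ranged from 0.89 to 1.30 (exact permutation test, adjusted p = 0.114 to 0.229), that of Bdh2 from 0.679 to 1.691, that of Acat1 from -0.449 to -0.142, and the length difference of Bdh2 from -51.8 to 79.2 bases, below 0 in 4 of 8 cases. The cause was not tested for any other change. Bdh2 had at most 26 counts in a library, and its knockout values had a coefficient of variation of 78.6%.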
